A study of Rattus norvegicus with 8 samples.

Results

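Genes of Notch, bone morphogenetic protein (BMP) and Id signalling were followed in cultured islet cells of Sprague Dawley rats aged 10 days, an age at which the insulin-producing beta cells are immature. The set was fixed by name as Id1, Id2, Id3, Id4, Smad6, Smad7, Hes1, Notch2, Jag1 and Bmpr2, and 9 of the 10 genes had a row among the 10692 rows of the deposited table. Hes1 was not analysed here. Inhibitor cells had received a mixture of 3 locked nucleic acid (LNA) oligonucleotides at 20 pmol each, directed at tiRNA-5, the fragments cut from the 5-prime end of tRNAs, of the histidine tRNA HisGTG and the glutamate tRNAs GluCTC and GluTTC. Control cells had received 60 pmol of a scrambled control LNA. All cells came from collagenase-isolated islets that were dissociated with trypsin and were then transfected with Lipofectamine. The labels name no sort for a cell type, and each group had 4 libraries. The comparison asks which mRNAs differ when these fragments are inhibited, and the fragments themselves are not measured by mRNA levels.

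BMP ligands bind a complex of type I and type II receptors, which phosphorylate SMAD proteins that enter the nucleus and switch on targets such as the Id genes and the inhibitory SMADs, and the inhibitory SMADs in turn damp the pathway. Id proteins have a helix-loop-helix domain without a DNA-binding region, so they capture the E proteins that partner with tissue-specific factors such as Neurod1 and keep them off DNA. Notch receptors are activated by Jagged and Delta ligands on neighbouring cells, and in the developing pancreas Notch signalling holds back endocrine differentiation.

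Values are RPKM (reads scaled to gene length and library size), a level per length that can be compared between genes. Each library held between 16035607 and 19049788 reads in the genes of the table. Among the markers of islet cells, 9 of 10 beta-cell, 6 of 6 alpha-cell and 3 of 4 delta-cell genes had rows, with the summed beta-cell RPKM at 159076 to 254973 in inhibitor and 202650 to 255323 in control libraries. Libraries differed in 2 of 3 listed Y-linked genes. Inhibitor 4 was lowest, with Eif2s3y at 0.257 RPKM and Kdm5d at 0.120 RPKM. Inhibitor 1 and control 1 were highest, at 18.8 and 14.2 RPKM for Eif2s3y and 8.73 and 7.04 RPKM for Kdm5d. The remaining libraries lay at 6.86 to 9.26 RPKM for Eif2s3y and 2.77 to 4.08 RPKM for Kdm5d. The third gene, Ddx3y, was at 1.42 RPKM in inhibitor 4, against 0.909 to 1.39 RPKM in the others. Control 1 had the lowest summed mesenchymal markers, at 2940 RPKM against 3292 to 6388 RPKM in the others. In such mixed cell samples, fewer cells of a type and less RNA per cell cannot be told apart.

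No gene of the set passed the test. The test was limma on log2(RPKM + 1) with Benjamini-Hochberg adjustment over 10688 genes, a threshold of 0.05 and a two-sided p, and fold changes are inhibitor minus control on that log2 scale. Over all genes, 0 of 10688 (0.0%) passed, and 960 (8.98%) had an unadjusted p under 0.05. Of those 590 were higher and 370 lower in inhibitor cells, a balance that turned with the scaling, to 449 higher and 540 lower with median-of-ratios scaling and 498 higher and 503 lower with limma-voom on recovered reads. limma-voom also passed 0 genes. Of the 9 genes, 7 were negative and 2 positive on that scale, where 45.7% of all tested genes were negative. The median log2 fold change of the 9 was -0.19, against 0.015 over all tested genes. Id1 and Smad6 were the 2 with an unadjusted p under 0.05 and a lower level in inhibitor cells, where 3.46% of all genes met that rule. They were joined by Id2 and Id3 without control 1 (4 genes of the set, against 6.31% of all genes) and without both control 1 and inhibitor 4 (4 genes, against 9.81%). Jag1 joined them without inhibitor 3 (3 genes, against 3.98%). Id2, Id3 and Jag1 joined them when each library was weighted by its closeness to its group in these same data (5 genes, against 13.5%). Those weights ran from 0.33 for control 1 to 3.08 for inhibitor 1. For each of the 9 genes the values of the groups overlapped, as they did for all but 5.31% of tested genes.

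**Figure D1:**
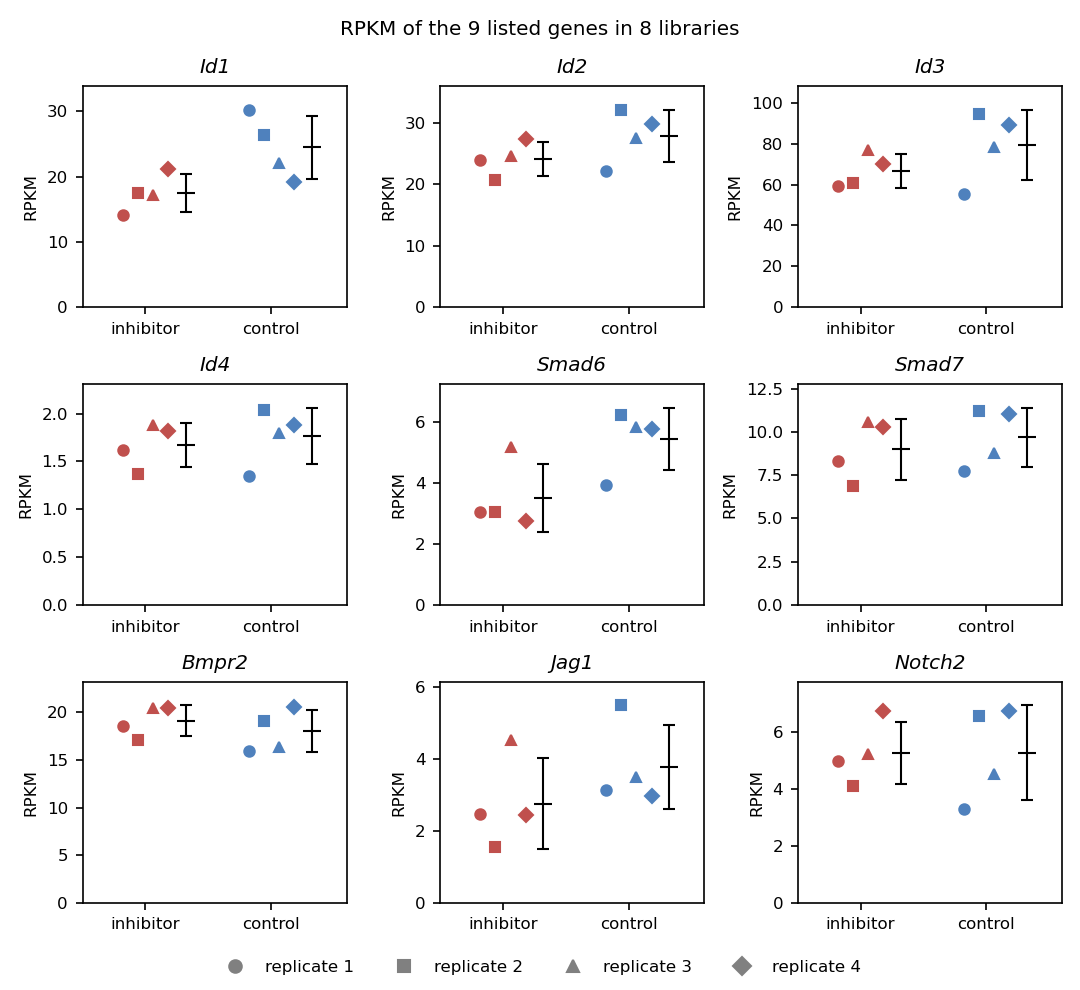
RPKM of Id1, Id2, Id3, Id4, Smad6, Smad7, Bmpr2, Jag1 and Notch2 in the 4 inhibitor (red) and 4 control (blue) libraries, with the marker shape giving the replicate number and the black bar the mean ± SD. The groups overlap in every panel, and Id1, Smad6 and Jag1 have 3 of 4 inhibitor libraries below all control libraries. How common this is among all genes was not counted.

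Id3 was the most abundant gene of the set in both groups, at 66.6 ± 8.21 RPKM in inhibitor and 79.4 ± 17.2 RPKM in control cells (SD, n = 4 each). In inhibitor cells it was followed by Id2 at 24.1, Bmpr2 at 19.1, Id1 at 17.5, Smad7 at 9.002, Notch2 at 5.28, Smad6 at 3.51, Jag1 at 2.75 and Id4 at 1.67 RPKM on average. In control cells the order was Id2 at 27.9, Id1 at 24.5, Bmpr2 at 18.02, Smad7 at 9.70, Smad6 at 5.46, Notch2 at 5.29, Jag1 at 3.76 and Id4 at 1.77 RPKM. The order of Id1 and Bmpr2 thus differed between the groups, and so did that of Smad6 and Notch2. Ranges over libraries overlapped between Bmpr2 and Id1, Notch2 and Smad6, Smad6 and Jag1, and Jag1 and Id4 in inhibitor cells. In control cells they overlapped between Id2 and Id1, Id1 and Bmpr2, Smad6 and Notch2, and Notch2 and Jag1. These neighbours are therefore not ordered beyond the spread between libraries.

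Id1, a direct target of BMP signals, stood at 14.1, 17.5, 17.2 and 21.1 RPKM in inhibitor 1 to 4, against 30.3, 26.4, 22.1 and 19.2 RPKM in control 1 to 4. Of the inhibitor libraries 3 lay below all controls, and only inhibitor 4 reached above the lowest control library, control 4. How many of all tested genes have 3 inhibitor libraries below all controls was not counted. The ratio of the group means was 0.713, from 354 to 675 reads per library. The log2 fold change was -0.46 ± 0.15 (SE), with a 95% confidence interval from -0.79 to -0.13, an unadjusted p of 0.0118 and an adjusted p of 0.541 by limma. In the authors' deposited table Id1 has a log2 fold change of -0.52 with a p of 0.00350 and an adjusted p of 0.309. The unadjusted limma p of Id1 stayed under 0.05 in all 16 alternatives, between 0.00191 and 0.0366, and the adjusted p lay between 0.0959 and 0.900.

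Id3 had 59.4, 60.5, 76.7 and 70.0 RPKM in inhibitor libraries, against 55.6, 94.5, 78.4 and 89.0 RPKM in control libraries. Control 1 was the lowest of all 8 libraries for this gene, while the other 3 controls lay above every inhibitor library. The log2 fold change was -0.23 ± 0.16 (SE; limma adjusted p = 0.613), and with 1 library left out it ran from -0.39 (without control 1; limma adjusted p = 0.361) to -0.14 (without control 2; limma adjusted p = 0.859).

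Id2, also an inhibitor of E proteins, had 23.9, 20.6, 24.7 and 27.3 RPKM in inhibitor libraries, against 22.1, 32.1, 27.6 and 29.7 RPKM in control libraries. As for Id3, control 1 was low and the other 3 controls lay above every inhibitor library. The log2 fold change was -0.19 ± 0.12 (SE; limma adjusted p = 0.592), and with 1 library left out it ran from -0.30 (without control 1; limma adjusted p = 0.385) to -0.13 without control 2 and -0.12 without inhibitor 2 (limma adjusted p = 0.842 and 0.719). Id4 was rare, at 1.62, 1.37, 1.88 and 1.82 RPKM in inhibitor and 1.35, 2.04, 1.79 and 1.88 RPKM in control libraries, from 51 to 87 reads each. Its groups lay over each other, with a log2 fold change of -0.049 ± 0.11 (SE; 95% confidence interval -0.29 to 0.19; limma adjusted p = 0.858).

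The summed RPKM of the 4 Id genes was 109.9 ± 12.1 in inhibitor and 133 ± 19.2 in control cells (SD, n = 4 each). Id3 made up 60.6% ± 2.29 of that sum in inhibitor and 59.0% ± 5.60 in control cells, and Id1 made up 15.9% ± 1.88 in inhibitor and 18.9% ± 6.08 in control cells. Control 1 differed most in this makeup, with Id1 at 27.7% of its sum against 13.7% to 17.6% in the other 7 libraries. Tcf3, Tcf4 and Tcf12, the E proteins that Id proteins bind, summed to 33.6 ± 1.22 RPKM in inhibitor and 34.1 ± 3.84 RPKM in control cells. The Id sum was 2.95, 3.06, 3.66 and 3.40 times the E protein sum in inhibitor libraries, against 3.61, 4.22, 4.14 and 3.68 times in control libraries. Only inhibitor 3 and control 1 overlapped in this ratio, which was formed after the values were seen and has no test.

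The stretches before the starts of the Id genes are shown as background, and their part in the levels was not tested. They come from RefSeq (build GRCr8), run 5′ to 3′ on the gene's strand and end at the base before the annotated gene, and capitals mark a TATA box (TATAAA).
Id1, chr3:161671314-161671524, plus strand: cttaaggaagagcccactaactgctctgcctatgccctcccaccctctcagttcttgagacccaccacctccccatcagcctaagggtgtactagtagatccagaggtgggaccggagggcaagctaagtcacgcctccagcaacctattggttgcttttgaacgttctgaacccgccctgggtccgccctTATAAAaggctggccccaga
Id2, chr6:47470996-47471245, minus strand: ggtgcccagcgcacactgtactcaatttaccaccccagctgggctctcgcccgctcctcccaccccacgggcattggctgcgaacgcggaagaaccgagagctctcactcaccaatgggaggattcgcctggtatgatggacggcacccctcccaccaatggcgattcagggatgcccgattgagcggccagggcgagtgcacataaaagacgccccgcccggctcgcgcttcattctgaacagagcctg
Id3, chr5:153656041-153656252, plus strand: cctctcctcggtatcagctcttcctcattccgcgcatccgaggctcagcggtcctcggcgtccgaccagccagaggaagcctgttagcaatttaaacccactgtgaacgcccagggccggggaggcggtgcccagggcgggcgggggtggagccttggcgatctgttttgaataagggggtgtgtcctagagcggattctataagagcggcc
Id4, chr17:16598294-16598543, minus strand: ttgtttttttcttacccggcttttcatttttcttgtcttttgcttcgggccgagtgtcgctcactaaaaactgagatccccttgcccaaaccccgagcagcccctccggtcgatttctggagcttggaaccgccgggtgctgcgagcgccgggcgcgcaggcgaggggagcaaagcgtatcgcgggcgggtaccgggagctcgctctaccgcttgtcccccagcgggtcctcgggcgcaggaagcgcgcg

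Motifs were searched on both strands by their exact letters, with N for any base. Close variants of a TATA box, such as CATAAAA in Id2 and TATAAG in Id3, were not counted. The exact letters TATAAA matched once in Id1 and in none of the other 3, against 13.1% of 27457 promoter windows of 250 bases. The SMAD element of BMP targets (GGCGCC) and the SMAD palindrome (GTCTAGAC) had no match in the 4 stretches, against 9.24% and 0.186% of windows. The RBPJ element of Notch targets (TGGGAA, 21.6% of windows) and the cyclic AMP response element (TGACGTCA, 1.70% of windows) had none either. The E-box (CANNTG, 65.2% of windows) matched once in Id2. In the other windows of the set, GGCGCC matched 2 times in Smad7, TGGGAA 2 times in Hes1 and CANNTG once in Notch2. Smad6 and Bmpr2 were not searched. A match is a run of letters and not a shown binding site, and the Id1 and Id3 stretches are shorter than the windows they are set against. Bases farther upstream were not searched, so a missing match speaks for these stretches alone.

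Smad6, an inhibitory SMAD that acts mainly on BMP signals, had 3.05, 3.06, 5.18 and 2.75 RPKM in inhibitor libraries, against 3.95, 6.25, 5.86 and 5.78 RPKM in control libraries. Of the inhibitor libraries 3 lay below all controls, a pattern not counted over all genes, while inhibitor 3 lay among the controls. The ratio of the group means was 0.643, from 97 to 225 reads per library. The log2 fold change was -0.53 ± 0.17 (SE), with a 95% confidence interval from -0.92 to -0.14, an unadjusted p of 0.0122 and an adjusted p of 0.541 by limma. In the authors' deposited table Smad6 has a log2 fold change of -0.65 with a p of 0.00816 and an adjusted p of 0.360. Its unadjusted limma p stayed under 0.05 in all 15 alternatives that tested it, between 0.000447 and 0.0366, and the adjusted p lay between 0.0959 and 0.900. Without inhibitor 3 the log2 fold change was -0.69.

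Smad7, the inhibitory SMAD that acts on both TGF-beta and BMP receptors, had 8.30, 6.84, 10.6 and 10.3 RPKM in inhibitor libraries, against 7.74, 11.2, 8.79 and 11.1 RPKM in control libraries. Its groups lay over each other, with a log2 fold change of -0.10 ± 0.15 (SE; 95% confidence interval -0.43 to 0.23; limma adjusted p = 0.800). Over the 8 libraries Smad6 and Smad7 had a Pearson r of 0.57 (rho 0.57), and 0.88 without the 2 libraries farthest from the Smad6 median. Whether their fold changes differ was not tested. Bmpr2, the type II receptor of BMPs, had 18.5, 17.1, 20.4 and 20.4 RPKM in inhibitor libraries, against 15.9, 19.1, 16.4 and 20.6 RPKM in control libraries. It varied least of the set, by 1.29-fold between its lowest and highest library. Its log2 fold change of 0.085 ± 0.094 (SE; 95% confidence interval -0.13 to 0.30; limma adjusted p = 0.738) was the largest positive one of the 9.

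Jag1, a ligand of Notch receptors, had 2.46, 1.56, 4.53 and 2.45 RPKM in inhibitor libraries, against 3.13, 5.48, 3.49 and 2.96 RPKM in control libraries. For Jag1, 3 inhibitor libraries lay below all controls, a pattern not counted over all genes, and inhibitor 3 was second only to control 2. With 3.52-fold between its lowest and highest library it varied most of the set. Its log2 fold change was -0.37 ± 0.23 (SE; limma adjusted p = 0.594), and with 1 library left out it ran from -0.58 (without inhibitor 3; limma adjusted p = 0.413) to -0.22 without control 2 and -0.21 without inhibitor 2 (limma adjusted p = 0.844 and 0.738). Notch2, a receptor for such ligands, had 5.01, 4.13, 5.23 and 6.76 RPKM in inhibitor libraries, against 3.32, 6.57, 4.53 and 6.76 RPKM in control libraries. The groups shared their range, with a log2 fold change of 0.021 ± 0.20 (SE; 95% confidence interval -0.42 to 0.46; limma adjusted p = 0.979).

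**Figure D2:**
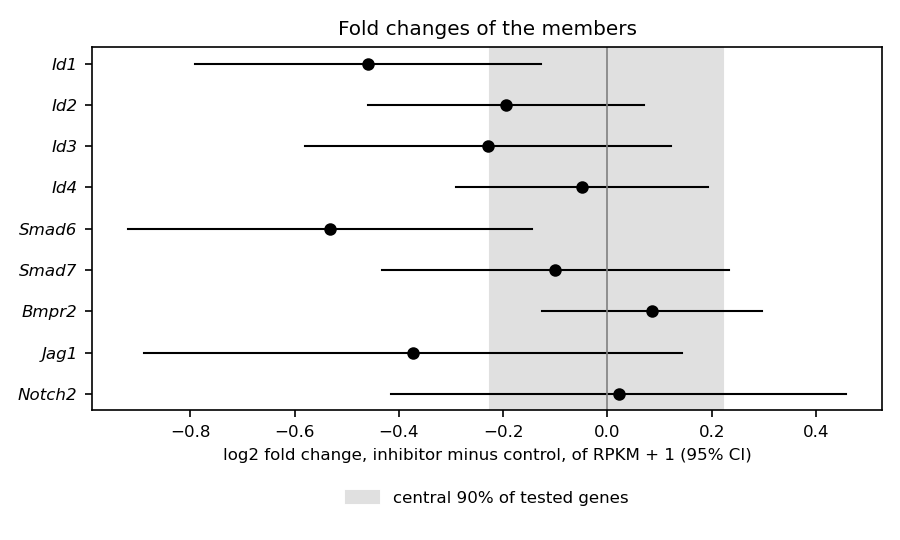
Log2 fold change (inhibitor minus control, of RPKM + 1) of the 9 genes, with points for estimates and lines for 95% confidence intervals, over the central 90% of all tested genes (grey band, -0.23 to 0.22). The intervals of Id1 and Smad6 end below 0, and those of the other 7 genes span 0.

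Across the 8 libraries most genes of the set varied together, and Id1 followed them less closely. Of the 36 pairs of genes, 33 had a positive Pearson r of log2(RPKM + 1), with a median of 0.65. The highest was 0.93 between Id4 and Smad7 (Spearman rho 0.98, r of 0.88 without the 2 libraries farthest from the Id4 median). Id2 and Id3 had an r of 0.90 (rho 0.90), whereas Id1 had an r of 0.25 with Id2 (rho 0.31), 0.14 with Id3 (rho 0.17) and -0.38 with Bmpr2 (rho -0.36), the lowest of all pairs. Without control 1 and inhibitor 1, the libraries farthest from the Id1 median, the r with Id2 was 0.78 and with Id3 0.62, so the low values rest on those libraries. Taken as deviations from the group means, 29 of the 36 pairs were positive, with a median of 0.70. Id1 was then at -0.19 with Id2 and -0.29 with Id3. How common such values are among pairs of other genes was not counted. All such values describe n = 8 libraries, in each of which the genes share 1 cell makeup and 1 depth, and carry no test.

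The mean log2 level of 10 listed mesenchymal and stellate cell markers moved with much of the set. Over the 8 libraries its Pearson r was 0.96 with Id4, 0.91 with Notch2, 0.88 with Id2, 0.87 with Id3, 0.87 with Smad7 and 0.75 with Bmpr2, against -0.21 with Id1. For Id1 it was 0.57 without control 1 and inhibitor 1, so its sign rests on those libraries. Of these markers 7 were lower and 3 higher on average in inhibitor cells, and none had an unadjusted limma p under 0.05 (smallest adjusted p = 0.625). Their summed RPKM ran from 3292 to 5244 in inhibitor and from 2940 to 6388 in control libraries. Of the 14 markers, Col1a2, Lum, Pdgfra and Rgs5 were not analysed here. The part of these cells in the levels of Id2, Id3, Id4, Smad7, Notch2 and Bmpr2 was not tested.

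Smad6 and Jag1 moved with 5 listed endothelial cell markers, though not with these alone. The Pearson r with the mean of Flt1, Esam, Egfl7, Plvap and Eng was 0.88 for Smad6 (rho 0.83) and 0.89 for Jag1 (rho 0.95), against 0.61 for Id1. Taken as deviations from the group means, it was 0.76 for Smad6, 0.89 for Jag1 and 0.22 for Id1. With the mesenchymal markers the r was 0.50 for Smad6 and 0.48 for Jag1, and without the 2 libraries farthest from each gene's median 0.87 for Smad6 and 0.029 for Jag1. With Ngfr, the single Schwann cell marker analysed here, it was 0.81 for Smad6 and 0.78 for Jag1. For the others of the set it ran from 0.19 for Id1 to 0.92 for Id3. With the 2 acinar cell markers analysed here it was 0.66 for Smad6 (rho 0.83) and 0.68 for Jag1 (rho 0.79). All 5 endothelial markers had a negative log2 fold change, with a median of -0.25 and 1 at an unadjusted limma p under 0.05 (smallest adjusted p = 0.541). Their summed RPKM was 33.9 to 47.4 in inhibitor and 40.9 to 63.9 in control libraries. The defining markers Pecam1, Cdh5, Kdr, Tie1, Tek, Emcn and Vwf were not analysed here. Eng is also a BMP co-receptor. The part of endothelial cells in the lower Smad6 and Jag1 levels was not tested.

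**Figure D3:**
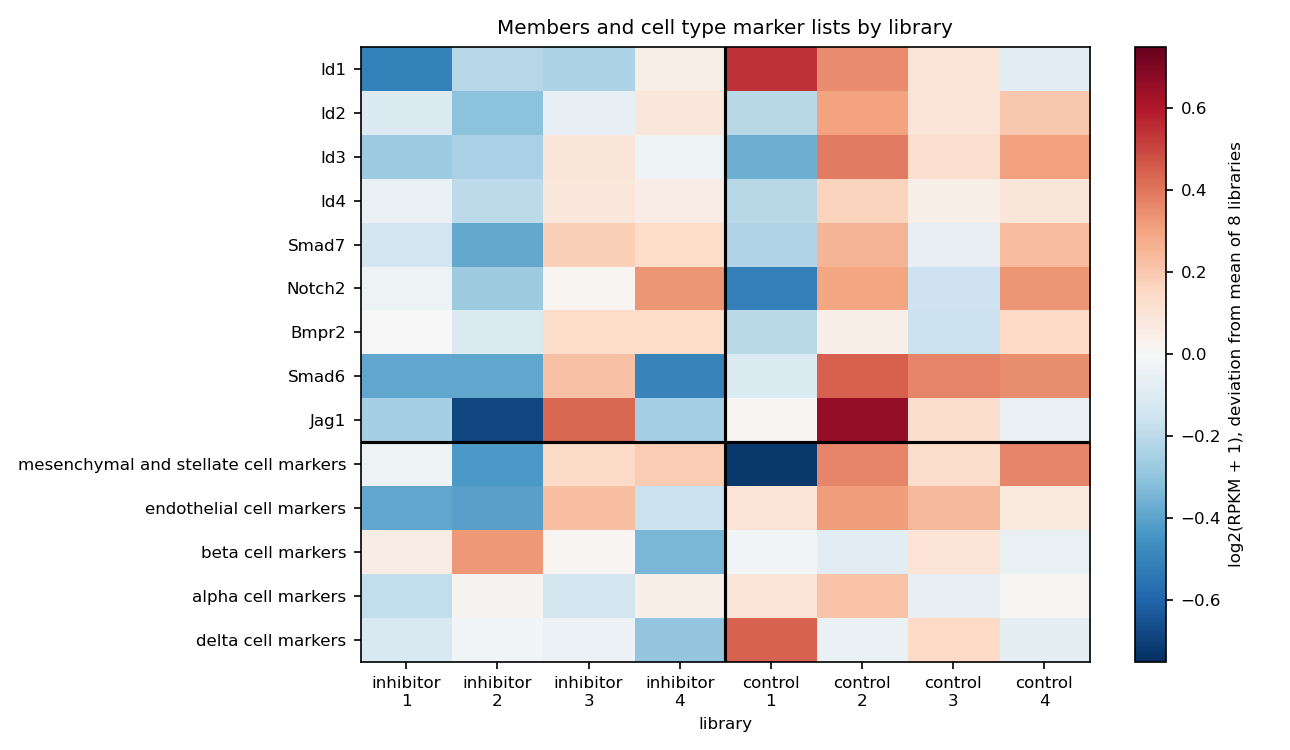
Deviation of log2(RPKM + 1) from the mean of the 8 libraries, for the 9 genes (above the line) and the means of 5 cell type marker lists (below it), with inhibitor libraries on the left and control libraries on the right. Control 1 is low for Id2, Id3, Id4, Smad7, Notch2 and the mesenchymal markers and high for Id1.

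The 3 genes most like Id1 over the 8 libraries, of 10688 tested, were Fxyd2, LOC100361898 and Relt, with a Pearson r of 0.99, 0.98 and 0.97 (rho 0.98 for each). Fxyd2, a regulatory subunit of the sodium-potassium pump, had 2.21, 4.38, 5.07 and 9.95 RPKM in inhibitor libraries, against 62.7, 22.6, 13.1 and 7.68 RPKM in control libraries. As for Id1, inhibitor 4 lay above control 4 and no other libraries of the groups overlapped. Fxyd2 had 15 to 377 reads per library. Its log2 fold change of -1.83 ± 0.56 (SE; limma adjusted p = 0.541) was the most negative of all tested genes. Relt, a receptor of the tumour necrosis factor family, averaged 6.55 ± 0.900 RPKM in inhibitor and 9.44 ± 2.20 RPKM in control cells (SD, n = 4 each; limma adjusted p = 0.541). Those most like Smad7 were Eml1, a microtubule-binding protein, Lamc1, a laminin chain, and G4, with an r of 0.99, 0.99 and 0.98. Those most like Bmpr2 were Myo9a, Gemin7 and Nme6, with an r of 0.98, 0.97 and 0.97.

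**Figure D4:**
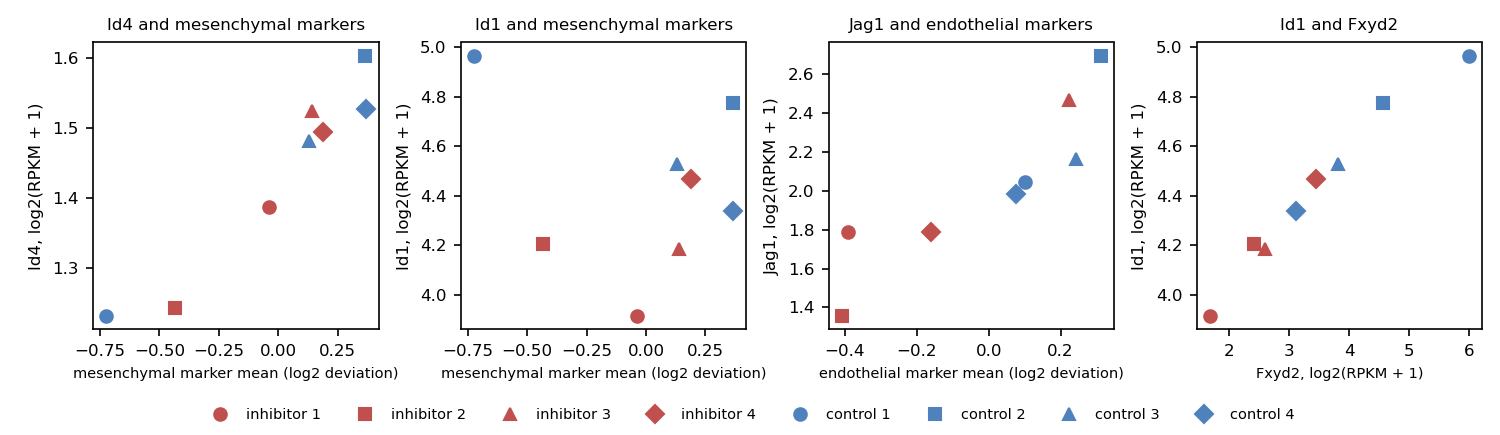
Level of Id4, Id1 and Jag1 (log2(RPKM + 1), y axes) against the mean log2 deviation of mesenchymal or endothelial markers or the level of Fxyd2 (x axes) in each of 4 inhibitor (red) and 4 control (blue) libraries. Id4 follows the mesenchymal markers (r = 0.96) and Jag1 the endothelial markers (r = 0.89). Id1 has an r of -0.21 with the mesenchymal markers, and 0.57 without control 1 and inhibitor 1. Fxyd2 is shown because it was the tested gene most like Id1 in these same libraries (r = 0.99).

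The wider pathways were read from 7 lists. Leaving out the set itself, 91 of their 131 genes had a row and 90 were tested. Of these, 0 passed the threshold, 31 were positive and 59 negative in log2 fold change, with a median of -0.047. At an unadjusted limma p under 0.05 there were 4 lower, where 3.46% of all genes were, and 3 higher, where 5.52% were, on the deposited scaling. On that scaling 45.7% of all tested genes were negative, with a median of 0.015. With median-of-ratios scaling the median of all tested genes was -0.0070, and the lists were not counted there.

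Among 13 tested Id proteins and partners of the basic helix-loop-helix class, 5 were positive and 8 negative. Bhlhe41, a transcriptional repressor of the circadian clock, had the smallest p of any listed gene. It stood at 27.7, 27.5, 24.8 and 28.4 RPKM in inhibitor libraries, against 22.6, 21.7, 20.8 and 23.0 RPKM in control libraries. All inhibitor libraries lay above all controls, which held for 3.70% of tested genes, and the log2 fold change was 0.29 ± 0.063 (SE; unadjusted p = 0.00113, limma adjusted p = 0.541). Neurod1, an activator of insulin transcription that works as a dimer with E proteins, averaged 92.2 ± 17.8 RPKM in inhibitor and 72.8 ± 5.31 RPKM in control cells (SD, n = 4 each), a log2 fold change of 0.32 ± 0.13 (SE; limma adjusted p = 0.541). Tcf3, one of those E proteins, averaged 7.45 ± 0.477 RPKM in inhibitor and 8.92 ± 1.24 RPKM in control cells (SD, n = 4 each), a log2 fold change of -0.22 ± 0.097 (SE; limma adjusted p = 0.546).

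Notch ligands and receptors had 6 tested genes, of which 2 were positive and 4 negative (median -0.11). None that was outside the set had an unadjusted p under 0.05. Dlk1, a non-canonical ligand, was at -0.23 ± 0.29 (SE) on the log2 scale, and without control 1, at 66.7 RPKM the highest library, it was 0.045. Notch1 stood at 3.36 ± 0.427 RPKM in inhibitor and 3.56 ± 0.242 RPKM in control cells (SD, n = 4 each). The 23 genes of Notch processing were balanced, with 10 positive and 13 negative (median -0.0015). Furin, the protease that cleaves Notch receptors and many other precursors on their way to the surface, had 38.2, 41.9, 44.9 and 44.6 RPKM in inhibitor libraries, against 51.4, 54.5, 48.6 and 49.3 RPKM in control libraries. All inhibitor libraries lay below all controls, as in 1.61% of tested genes, with a log2 fold change of -0.26 ± 0.069 (SE; limma adjusted p = 0.541). In Dtx3, a ubiquitin ligase of the Deltex family, the groups did not overlap either, at -0.12 ± 0.060 (SE; limma adjusted p = 0.564), and it is named after its values were seen. Rfng, a Fringe enzyme that adds sugars to Notch, had -0.20 ± 0.076 (SE; limma adjusted p = 0.541), and its groups overlapped only in inhibitor 2 and control 2. The 11 nuclear factors and targets of Notch had 2 positive and 9 negative values (median -0.064). The smallest p were those of Tle1, a corepressor, at -0.14 ± 0.078 (SE), and Snw1, a cofactor of the Notch complex, at 0.12 ± 0.071 (SE).

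BMP and activin ligands and their extracellular inhibitors had 4 positive and 11 negative of 15 tested genes (median -0.11), with none at an unadjusted limma p under 0.05. Fstl3, which binds activin, was at -0.33 ± 0.19 (SE) on the log2 scale, and Twsg1, a BMP-binding protein, -0.10 ± 0.063 (SE). The 13 receptors had 6 positive and 7 negative values (median -0.0045). Acvr1c, the type I receptor also called ALK7, had 4.01, 3.84, 2.91 and 3.12 RPKM in inhibitor libraries, against 3.09, 2.05, 1.54 and 2.84 RPKM in control libraries. The groups overlapped in control 1 and inhibitor 3 alone, and the log2 fold change was 0.42 ± 0.16 (SE; limma adjusted p = 0.541). Rgmb, a BMP co-receptor, averaged 8.46 ± 0.422 RPKM in inhibitor and 10.1 ± 1.15 RPKM in control cells (SD, n = 4 each), a log2 fold change of -0.23 ± 0.084 (SE; limma adjusted p = 0.541). The 18 SMADs and regulators had 4 positive and 14 negative values (median -0.048). Beside Smad6, the genes with the smallest p were Ski, a corepressor of SMADs, at -0.18 ± 0.10 (SE), and Pmepa1, a TGF-beta target that dampens its signalling, at -0.23 ± 0.17 (SE). The receptor-activated Smad1 and Smad5 had log2 fold changes of -0.015 ± 0.071 and 0.070 ± 0.078 (SE), chosen here after their values were seen.

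**Figure D5:**
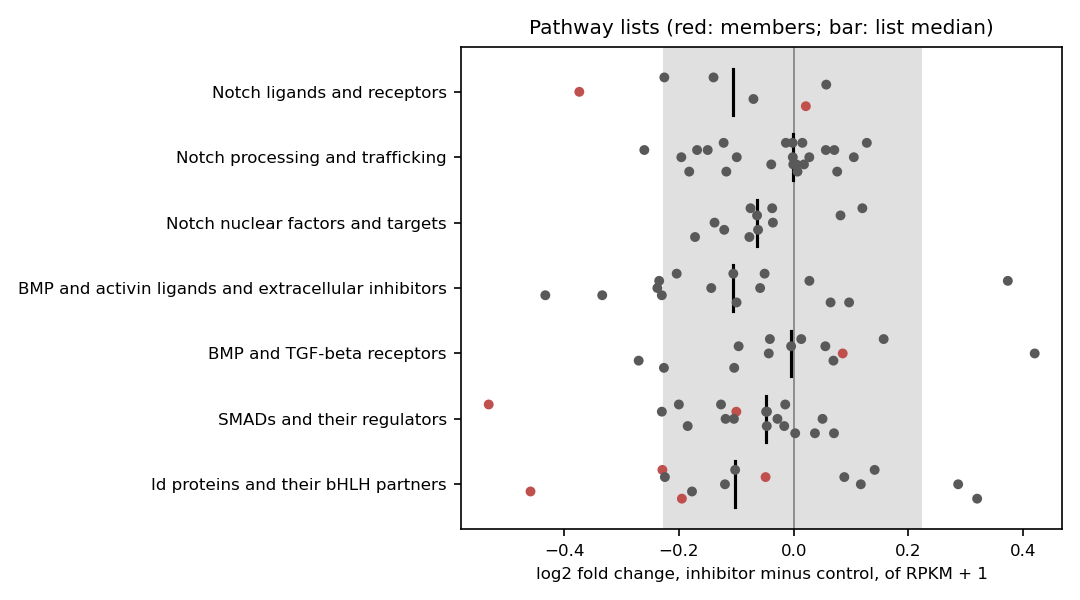
Log2 fold change (inhibitor minus control, of RPKM + 1; x axis) of each tested gene in 7 pathway lists (y axis), with members in red, other genes in grey and a bar at each list's median; the grey band holds the central 90% of all tested genes. List medians lie between -0.11 and -0.0015, and Smad6 is the most negative gene.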

How the data were processed

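mRNA was measured in 8 libraries of rat islet cells, 4 per group, grouped by their titles. Per the file headers, the deposited values were RPKM, 1 column per library. Tools given in the submitters' processing notes are HTSeq, HISAT2 2.1.0, RSEM 1.3.0 and STAR 2.5.3a, with build rn6. What each did, the annotation and any use of strand: not given in the sources used here. Each row had a mean of at least 1 RPKM in both groups. The authors' deposited table also holds a fold (the ratio of the group means), a log2 fold change, p-values and adjusted p-values, whose test is not named.

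log2(RPKM + 1) was fitted with limma 3.58.1 (R 4.3.3), with group alone and an intensity trend, for the 10688 genes that reached 1 RPKM in 4 or more libraries. Fold changes on this scale understate those of low genes. The median half-width of the 95% confidence intervals was 0.20. Values of a gene are whole multiples of what 1 read is worth, so reads were recovered from the proportions between libraries, within a tolerance of 0.0001, for 10692 of 10692 rows (100%), up to a common divisor per gene. The scripts were tested on simulated data. Nothing states that the libraries came from separate cultures or animals, so the p-values reflect the spread of these libraries alone, part of which may be technical. Inhibitor 4 was far below the other libraries in Eif2s3y and Kdm5d but not in Ddx3y, so the libraries need not share a single cell pool. The sex of the animals is not given, and its part in the comparison was not tested.

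All members and the genes most like Id1, Smad7 and Bmpr2 are named (those most like Hes1 were also planned). From each list the genes outside the set with an unadjusted p under 0.05 are named or, where there were none, those 2 with the smallest p. The members, lists and tests were chosen with earlier results of these data known. Older symbols were matched through the RefSeq gene table (GRCr8), and promoters of 9 of the 10 members were found in the RefSeq promoter table.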

Additional observations from a re-analysis of the deposited data

Results flagged for a closer look

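Of 88 groups of 4 libraries checked for a library far from the other 3, 2 stood out, where chance gives about 1 in 20. Smad6 was at 5.18 RPKM in inhibitor 3, while the other inhibitor libraries were at 2.75 to 3.06 RPKM. Twsg1 was at 26.1 RPKM in control 1, while the other control libraries were at 24.4 to 24.6 RPKM.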

How the results depend on the processing

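With 16 alternatives (pseudocount 0.1, no filter, RPKM of at least 5 in all 8 libraries, median-of-ratios scaling, limma-voom on recovered reads, library weights, a replicate block, each library left out and both control 1 and inhibitor 4 left out), 0 genes passed the threshold in each. Id4, Smad6, Notch2 and Jag1 were not tested at RPKM of at least 5, so the set's median was not formed there. The number of genes at an unadjusted p under 0.05 was 2814 with library weights, 1700 without control 1 and inhibitor 4, and 421 to 1272 with 1 library left out. Genes of the set lower at an unadjusted p under 0.05 numbered 5 with library weights (13.5% of all genes), 4 without control 1 and inhibitor 4 (9.81%), and 2 to 4 with 1 library left out, the 4 without control 1 (6.31%). The set's median was -0.36 to -0.12 in all of these. Id1, Id2, Id3, Smad6 and Jag1 stayed negative in every alternative that tested them. Notch2 was -0.19 with library weights, -0.25 without control 1 and inhibitor 4, and -0.15 to 0.14 with 1 library left out. Bmpr2 was -0.0019 with library weights. With 1 library left out, Id4 was -0.13 to 0.0075 and Smad7 -0.19 to 0.011, both above 0 only without inhibitor 2. Dlk1 was 0.036 with library weights, 0.19 without control 1 and inhibitor 4, and -0.44 to 0.045 with 1 library left out. Eml1 was -0.28 to 0.0057 and Lamc1 -0.24 to 0.0034 with 1 library left out. The cause was not tested. Replicate numbers were not taken to pair the libraries, as the labels name no pairs. The correlations between deviations of same-numbered libraries were 0.14, -0.27, 0.32 and 0.45. Controls 3 and 4 correlated best with their own number, and controls 1 and 2 with inhibitors 2 and 4. Such values rest on deviations from means of 4 libraries and cannot decide whether the libraries were paired. The Y-linked Eif2s3y was at 18.8, 6.86, 9.26 and 0.257 RPKM in inhibitor 1 to 4. In control 1 to 4 it was at 14.2, 6.96, 8.48 and 8.91 RPKM. With the replicate block, 1109 genes had an unadjusted p under 0.05 and 0 passed. Depth limits Id4 most, at 51 to 87 reads.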

Other observations

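In the proportion of the inhibitory SMADs the groups lay just apart. Smad7 stood at 2.72, 2.23, 2.04 and 3.74 times Smad6 (RPKM) in inhibitor libraries, against 1.96, 1.79, 1.5 and 1.91 times in control libraries. The lowest inhibitor library, inhibitor 3, lay just above the highest control library, control 1. This ratio was chosen after the values were seen and has no test. How many other gene pairs separate the groups as well was not counted, and Smad6 rests on 97 to 225 reads per library.

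Markers of other islet cell types did not pass the test. The delta-cell markers Sst, Hhex and Rbp4 summed to 549 ± 95.05 RPKM in inhibitor and 787 ± 209 RPKM in control cells (SD, n = 4 each), and all 3 had a negative log2 fold change. Id1 had a Pearson r of 0.81 with the mean of the 6 alpha-cell markers over the 8 libraries (rho 0.81), and 0.76 without the 2 libraries farthest from the Id1 median. The alpha-cell markers summed to 8307 ± 1286 RPKM in inhibitor and 7899 ± 1167 RPKM in control cells (SD, n = 4 each), where 4 of 6 had a negative log2 fold change.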
